A study of Mus musculus with 30 samples.

Results

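The genes described here are 10 mouse genes of antigen presentation by the major histocompatibility complex (MHC), chosen by name, with levels read from RNA sequencing of left ventricles. They comprised the class I genes H2-K1, H2-D1 and B2m, the peptide transporter genes Tap1 and Tap2, the class II genes H2-Aa, H2-Ab1, H2-Eb1 and Cd74, and the regulator Ciita. All 10 were found in both deposited tables, the peptide study's with 49671 genes and the antibody study's with 56386 once its 142647 transcripts were summed to genes. In the peptide study, male C57BL6J mice were administered recombinant human Aβ42 (7 hearts) or a scrambled version of that peptide, ScrAβ42 (7 hearts), by daily intraperitoneal injection for 4 weeks. The labels start them at 12 weeks of age, and the study's methods give a range of ages that ends there. In the antibody study, male C57BL6J mice aged 12 weeks at the start were administered 3D6, an antibody that neutralises Aβ42 (8 hearts), or an isotype control antibody (8 hearts). The sources differ on what both antibody groups had in common. The study's methods give a high-fat diet with weekly antibody, whereas the series record has these mice given Aβ42 as well, so the shared background of 3D6 and control mice is not settled here. All groups are labelled wild type, the strain is written C57BL6 in places, no transgene or deletion is named, and each heart is named by the number in its label.

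MHC class I molecules are made by almost every nucleated cell and display peptides from that cell's own proteins to cytotoxic T cells. Each holds a heavy chain, such as that encoded by H2-K1 or H2-D1, and the light chain β2-microglobulin, encoded by B2m, and the transporter built from the Tap1 and Tap2 proteins moves peptides into the endoplasmic reticulum for loading. MHC class II molecules are made mainly by macrophages, dendritic cells and B cells and display peptides from engulfed material to helper T cells. H2-Aa and H2-Ab1 encode the α and β chains of the I-A molecule, H2-Eb1 encodes the β chain of I-E, Cd74 encodes the invariant chain that escorts new class II molecules, and Ciita encodes the coactivator that turns class II genes on. In bulk tissue, fewer cells of a type and less RNA per cell cannot be told apart.

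Most of these genes lie within the MHC on chromosome 17. On GRCm38 (GENCODE vM21), H2-K1 spans chr17:33996017-34000347 on the minus strand, Tap1 spans chr17:34187553-34197225 and Tap2 spans chr17:34203527-34216321 on the plus strand. H2-Ab1 spans chr17:34257689-34269419 on the plus strand, H2-Aa spans chr17:34282744-34287823 on the minus strand, H2-Eb1 spans chr17:34305867-34316674 on the plus strand and H2-D1 spans chr17:35262730-35267499 on the plus strand. Outside the MHC, on the plus strand, B2m spans chr2:122147686-122153083 and Ciita spans chr16:10480059-10528418.

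The class I genes, and likewise the class II genes, varied together from heart to heart (described further on), so promoter sequence is shown for members of both classes. Genes of both classes are known to share upstream boxes read by RFX, CREB and NF-Y proteins. RefSeq promoters (GRCm38.p6) matched 6 of the 10 members, H2-K1, H2-D1, B2m, Tap1, H2-Aa and H2-Eb1, and the 200 bases before the start site were searched on both strands. For H2-D1 the RefSeq start lies 364 bases inside the gene span given by GENCODE, so its window is upstream of the RefSeq start only. The searched letters were TGACG (the core of the X2 box), ATTGG (the Y box), GGGGATTCC (from the κB site) and GAANNGAAA (from the interferon response element), none of which overlapped another in these windows except TGACG with its own reverse in H2-Aa. Matches are in capitals in the sequences below, each written 5′ to 3′ on the strand of its gene.
H2-K1, chr17:34000348-34000547, minus strand: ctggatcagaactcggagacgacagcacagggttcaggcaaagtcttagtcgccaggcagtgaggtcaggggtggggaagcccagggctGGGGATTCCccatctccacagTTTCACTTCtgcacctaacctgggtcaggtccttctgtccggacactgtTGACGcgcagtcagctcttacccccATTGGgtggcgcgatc
B2m, chr2:122147487-122147686, plus strand: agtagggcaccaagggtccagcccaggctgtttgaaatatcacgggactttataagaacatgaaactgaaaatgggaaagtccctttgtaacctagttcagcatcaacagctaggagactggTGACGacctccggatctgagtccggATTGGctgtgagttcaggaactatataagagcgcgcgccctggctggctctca
H2-Aa, chr17:34287824-34288023, minus strand: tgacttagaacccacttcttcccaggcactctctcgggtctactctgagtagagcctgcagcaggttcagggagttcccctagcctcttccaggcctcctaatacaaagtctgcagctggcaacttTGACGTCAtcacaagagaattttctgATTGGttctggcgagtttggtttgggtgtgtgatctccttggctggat
H2-Eb1, chr17:34305667-34305866, plus strand: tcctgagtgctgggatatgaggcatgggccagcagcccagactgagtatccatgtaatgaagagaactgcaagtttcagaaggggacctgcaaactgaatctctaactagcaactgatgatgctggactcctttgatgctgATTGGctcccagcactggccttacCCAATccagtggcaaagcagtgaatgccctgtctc

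TGACG was followed by ATTGG with their first letters 25 bases apart in H2-K1, H2-D1 and B2m and 26 bases apart in H2-Aa. The pair at either distance occurred in 47 of the 32851 RefSeq mouse promoters of this length (0.143%), TGACG in 15.7% and ATTGG in 29.3%. Both distances are those found in the members, so this share is a background and not a test. Tap1 held TGACG without ATTGG, and H2-Eb1 held ATTGG on each strand without TGACG. GGGGATTCC (51 promoters, 0.155%) and GAANNGAAA (5.00% of promoters) were each found in H2-K1 and H2-D1. These matches are descriptions of letters, not of binding.

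The peptide libraries held 4478991 to 6015767 counts per heart and the antibody libraries 6397192 to 8310478. Counts on the mitochondrial genome took 12.9% to 22.2% of each peptide library and 25.9% to 37.8% of each antibody library. In the peptide study the summed level of the atrial genes Sln, Myl7, Myl4, Bmp10 and Mybphl ran from 12.4 to 8417 CPM (counts scaled to the normalised size of the library) in Aβ42 hearts, with a median of 1158 CPM, and from 3.82 to 3665 CPM in ScrAβ42 hearts, with a median of 10.5 CPM. The ventricular cardiomyocyte genes (Myh6, Myl2, Myl3, Tnnt2, Tnni3, Actc1 and Ryr2) summed to 40509 CPM or more in each of the 30 hearts. Myh6 alone averaged 31453 CPM in Aβ42 hearts and 34067 CPM in ScrAβ42 hearts. Myl2 had a minimum of 804 CPM in Aβ42 hearts (median 6474 CPM) and of 3684 CPM in ScrAβ42 hearts. For Myl3 these were 737 CPM (median 4609 CPM) and 2745 CPM, whereas Tnnt2 had minima of 7052 and 7596 CPM. The sum does not measure how much of a sample was ventricle. Across all genes, 0 of 11985 tested in the peptide study, and 0 of 12274 for 3D6, had an adjusted p under 0.05 with edgeR's quasi-likelihood test, the smallest adjusted p being 0.091 and 0.946. DESeq2 gave 12 and 0 such genes, and limma-voom gave 0 in both studies. An unadjusted edgeR p under 0.05 was found for 780 peptide study genes and 447 antibody study genes.

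Levels of the members were first compared with one another per kilobase of their longest protein-coding transcript, as CPM per kb. B2m was the most abundant member at 175 ± 37.9 CPM per kb (SD, n = 14 hearts) for the peptide study and 162 ± 35.9 (n = 16) for the antibody study. The heavy chain gene H2-K1 stood at 76.4 ± 20.0 and 62.5 ± 18.5, and H2-D1 at 70.0 ± 12.7 and 69.7 ± 15.6 CPM per kb, respectively. H2-K1 was above H2-D1 in 12 of 14 peptide hearts, whereas H2-D1 was above H2-K1 in 14 of 16 antibody hearts. These heavy chain transcripts share sequence, as described at the end, so the order of H2-K1 and H2-D1 is uncertain.

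Cd74 led the class II genes at 45.0 ± 14.4 CPM per kb among peptide hearts and 58.5 ± 22.6 in the antibody study, where it did not separate from H2-K1 (H2-K1 was higher in 9 of 16 hearts). H2-Aa stood at 22.3 ± 8.53 and 23.3 ± 9.24, H2-Ab1 at 16.5 ± 6.10 and 23.2 ± 9.78, and H2-Eb1 at 13.7 ± 5.06 and 14.5 ± 5.42 CPM per kb. H2-Aa exceeded H2-Ab1 in 13 of 14 peptide hearts but in 8 of 16 antibody hearts, so these chains of the same molecule did not separate in level there. For Cd74, H2-Eb1 and Tap2 a shorter transcript held the largest share of antibody study counts. It was the coding Cd74-201, H2-Eb1-205, annotated for nonsense-mediated decay, and Tap2-202, a retained-intron transcript. Dividing by the length of that transcript instead was a choice made after seeing the data. Cd74 then stood at 51.9 ± 16.5 and 67.4 ± 26.02 CPM per kb, above H2-K1 in 10 of 16 antibody hearts. H2-Eb1 then stood at 21.1 ± 7.81 and 22.4 ± 8.35, above H2-Ab1 in 13 of 14 peptide hearts and below it in 9 of 16 antibody hearts, and Tap2 at 7.68 ± 0.794 and 10.3 ± 1.91 CPM per kb. The order of Cd74 and H2-K1 in the antibody study and of H2-Ab1 and H2-Eb1 in the peptide study therefore depends on the length used. Tap2 (5.72 ± 0.591 and 7.66 ± 1.42) lay above Tap1 (3.08 ± 0.633 and 3.29 ± 1.05) in every heart of both studies. Ciita was the least abundant member, at 0.214 ± 0.104 and 0.315 ± 0.134 CPM per kb, and averaged 6.93 counts per heart in the peptide study, under the minimum mean of 10 counts required for testing. The remaining 9 members could be tested there, and all 10 in the antibody study.

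**Figure D1:**
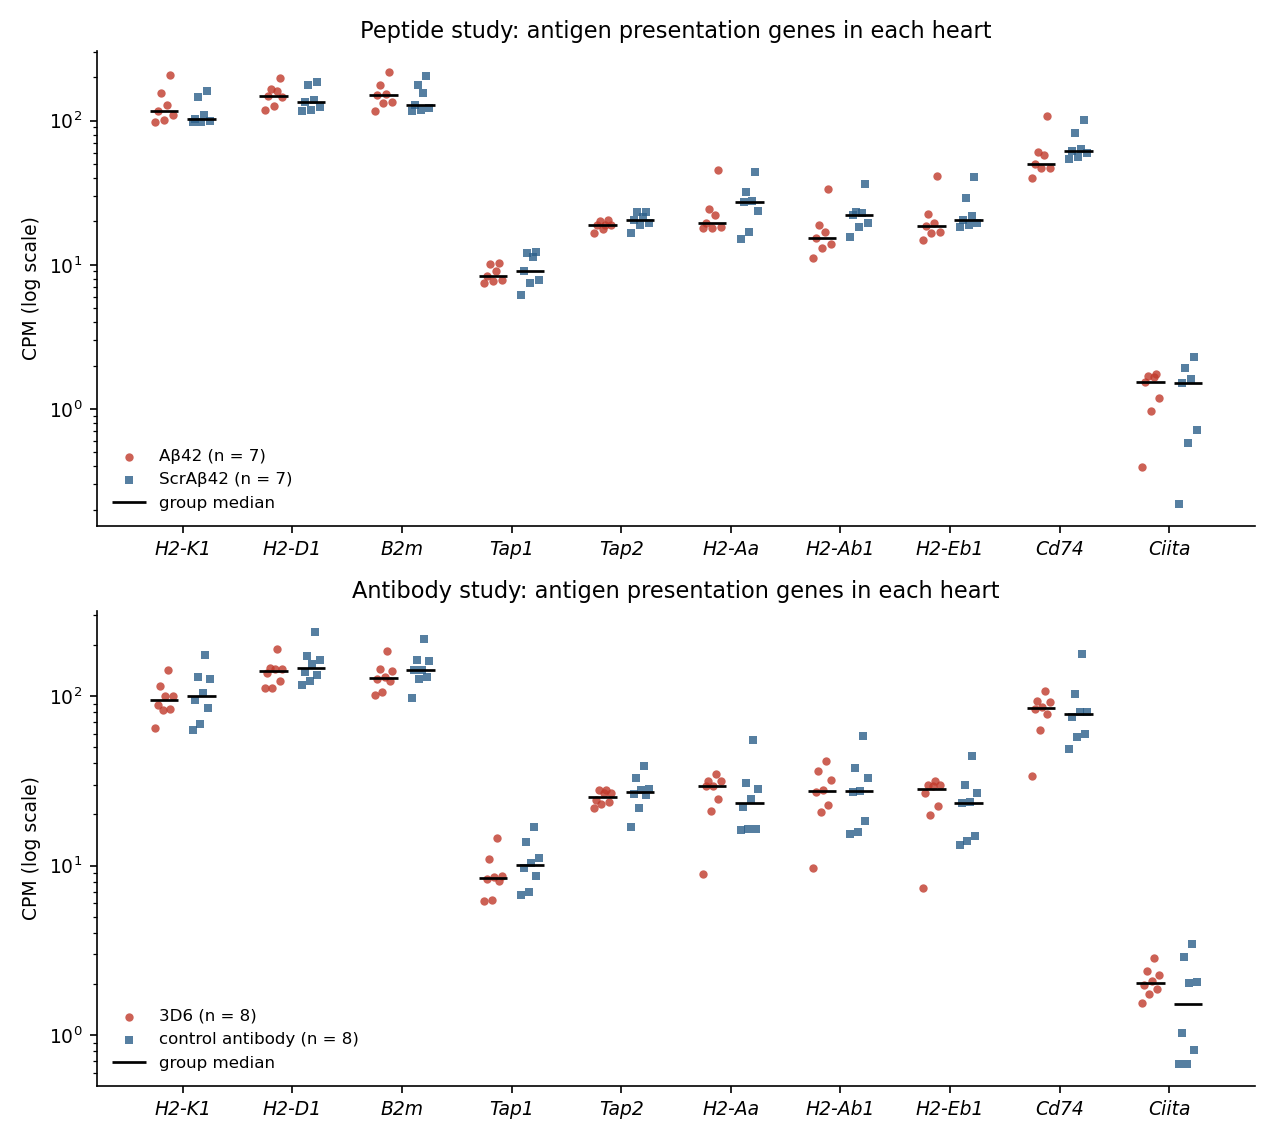
Expression of the 10 antigen presentation genes in each heart, in CPM on a log axis, with 1 point per heart and a bar at the group median, for the peptide study (above) and the antibody study (below). The groups overlap for each gene, class II genes spread more widely than Tap2 or H2-D1, and in the antibody study 1 3D6 heart lies below all other hearts for H2-Aa, H2-Ab1, H2-Eb1 and Cd74.

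Among the members tested, class II genes varied most between mice given the same treatment, joined by Ciita in the antibody study (SD 0.58). Ciita, not tested in the peptide study, spanned 10.5-fold there on 1 to 13 counts per heart. The within-group SD of log2 CPM was 0.50 for H2-Aa, 0.45 for H2-Ab1, 0.45 for H2-Eb1 and 0.40 for Cd74 in the peptide study, against a median of 0.23 over all tested genes. These values stood at percentiles 89.0, 86.1, 86.2 and 82.1 of the tested genes. In the antibody study the SD was 0.61 for H2-Aa, 0.65 for H2-Ab1, 0.65 for H2-Eb1 and 0.55 for Cd74, at percentiles 94.7, 95.6, 95.6 and 92.2, against a median of 0.28. The class I genes lay lower, between 0.26 (H2-D1) and 0.34 (H2-K1) in the peptide study and between 0.29 (H2-D1) and 0.42 (H2-K1) in the antibody study. Tap2 was the steadiest member, with an SD of 0.14 (percentile 15.5) and 0.27 (percentile 45.3). As folds of the highest over the lowest heart, the class II genes spanned 2.70 (Cd74) to 3.29 (H2-Ab1) in the peptide study and 5.25 (Cd74) to 6.15 (H2-Aa) in the antibody study.

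The first comparison asked how these genes stood when Aβ42 was raised. In hearts of mice administered Aβ42, the class I genes were slightly above and the class II genes slightly below the levels in mice administered ScrAβ42, and none of these differences exceeded the spread between hearts. With an unadjusted edgeR p under 0.05, 0 of the 9 tested members were called, against 6.51% of all tested genes (3.59% higher and 2.92% lower), and DESeq2 and limma-voom also called 0 members. The adjusted p of the 9 members ran from 0.818 to 0.953. By sign alone, the fold change was above 0 for 3 of 3 class I genes, 0 of 2 transporter genes and 0 of 4 class II genes, against 50.5% of all tested genes.

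Among class I genes, H2-K1 ranged over 97.4, 118 and 207 CPM (lowest, median and highest) in Aβ42 hearts and over 98.0, 103 and 160 CPM in ScrAβ42 hearts. H2-D1 ranged over 119, 149 and 199 CPM against 117, 135 and 186 CPM. B2m ranged over 118, 151 and 216 CPM against 116, 129 and 206 CPM. The groups overlapped for all 3 genes, with 5, 5 and 6 of the 7 Aβ42 hearts above the ScrAβ42 median. The log2 fold change of Aβ42 over ScrAβ42 was 0.17 ± 0.17 (SE) for H2-K1, 0.10 ± 0.13 for H2-D1 and 0.08 ± 0.15 for B2m. An interval of 2 SE around the H2-K1 estimate ran from -0.17 to 0.51, and that of B2m from -0.23 to 0.38. When the atrial markers entered the model as a covariate, these 3 estimates changed sign, to -0.06, -0.06 and -0.07, and without the heart Abeta42_3458, which held 4357 CPM of atrial genes, B2m stood at -0.02, H2-K1 at 0.02 and H2-D1 at 0.02. Without the heart ScrAbeta42_3442 they stood at 0.17, 0.26 and 0.17. The part of atrial RNA in the class I levels was not tested further.

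The transporter genes were lower by sign with Aβ42. Tap1 ranged over 7.45, 8.38 and 10.2 CPM in Aβ42 hearts and over 6.20, 9.08 and 12.2 CPM in ScrAβ42 hearts. Tap2 ranged over 16.8, 18.9 and 20.6 CPM against 16.7, 20.3 and 23.3 CPM, with 6 of 7 Aβ42 hearts below the ScrAβ42 median. The groups overlapped, and the log2 fold change was -0.13 ± 0.16 for Tap1 and -0.12 ± 0.08 for Tap2 (edgeR adjusted p = 0.839). Without the heart ScrAbeta42_3449, Tap2 stood at -0.17 ± 0.08 with an unadjusted edgeR p under 0.05 and an adjusted p of 0.825. In that fit 385 genes higher and 332 lower, of 12001 tested, had an unadjusted p under 0.05. With the atrial markers as a covariate Tap1 stood at -0.27. The Tap1 estimate was -0.21 without ScrAbeta42_3449 and -0.06 without ScrAbeta42_3442.

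All 4 class II genes were lower by sign with Aβ42, and for H2-Aa, H2-Ab1 and Cd74 6 of 7 Aβ42 hearts lay below the ScrAβ42 median. H2-Ab1, which had the largest difference of the members tested, ranged over 11.1, 15.3 and 33.8 CPM in Aβ42 hearts and over 15.5, 22.1 and 36.6 CPM in ScrAβ42 hearts. Cd74 ranged over 40.2, 50.1 and 109 CPM against 54.1, 61.2 and 102 CPM. H2-Aa ranged over 17.97, 19.6 and 45.7 CPM against 15.1, 27.1 and 44.2 CPM. In each of these genes 1 Aβ42 heart, Abeta42_3455, lay far above the other 6 Aβ42 hearts and near the highest ScrAβ42 heart. H2-Eb1 ranged over 14.8, 18.5 and 41.5 CPM against 18.4, 20.6 and 40.7 CPM, with the same heart on top. The log2 fold change was -0.37 ± 0.23 for H2-Ab1 (edgeR adjusted p = 0.818), -0.22 ± 0.21 for Cd74, -0.18 ± 0.25 for H2-Aa and -0.17 ± 0.24 for H2-Eb1.

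These class II estimates turned on 2 hearts, Abeta42_3455 and ScrAbeta42_3442. Without Abeta42_3455, H2-Aa stood at -0.42 ± 0.21 and H2-Ab1 at -0.61 ± 0.18 (edgeR adjusted p = 0.834), Cd74 at -0.44 ± 0.15 (edgeR adjusted p = 0.834) and H2-Eb1 at -0.42 ± 0.18 (edgeR adjusted p = 0.888), the last 3 with an unadjusted p under 0.05. In that fit 349 genes higher and 319 lower, of 11970 tested, had an unadjusted p under 0.05. The heart Abeta42_3455 held 43.4 CPM of B cell genes, 415 CPM of macrophage genes and 4707 CPM of atrial genes, where the Aβ42 medians were 8.38, 273 and 1158 CPM. Without ScrAbeta42_3442, the highest of its group, the differences shrank to -0.0072 for H2-Aa, -0.21 for H2-Ab1, -0.10 for Cd74 and 0.00 for H2-Eb1. ScrAbeta42_3442 held 337 CPM of macrophage genes, 7.78 CPM of B cell genes and 11.3 CPM of Ptprc. The ScrAβ42 medians were 259, 7.70 and 8.09 CPM. With the atrial markers as a covariate H2-Aa stood at -0.30. Ciita ranged over 0.397, 1.53 and 1.74 CPM in Aβ42 hearts and over 0.219, 1.51 and 2.30 CPM in ScrAβ42 hearts, a difference in mean log2 CPM of 0.13 (two-sided exact permutation test, p = 0.717).

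The second comparison asked how the genes stood when Aβ42 was neutralised. In hearts of mice administered 3D6, the class I and transporter genes were slightly lower than with control antibody and of the class II genes 2 were higher and 2 lower by sign. With the mitochondrial share as a covariate, 2 of 3 class I genes, Tap2 and all 4 class II genes were higher, and with scaling to total counts all 4 class II genes were lower. Again no difference exceeded the spread between hearts. With an unadjusted edgeR p under 0.05, 0 of the 10 members were called, against 3.64% of all tested genes, and DESeq2 and limma-voom also called 0 members. With a block of consecutive mouse numbers, chosen after seeing the data, B2m and Tap1 were called (edgeR adjusted p = 0.647). In that fit 470 genes higher and 475 lower, of 12274 tested, were called too, and the labels name no pairs. Without the block, the adjusted p ran from 0.946 to 0.999. By sign alone, the fold change was above 0 for 0 of 3 class I genes, 0 of 2 transporter genes, 2 of 4 class II genes and Ciita, against 47.4% of all tested genes.

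H2-K1 ranged over 64.4, 94.2 and 143 CPM in 3D6 hearts and over 63.3, 99.3 and 173 CPM in control antibody hearts. H2-D1 ranged over 111, 141 and 190.2 CPM against 117, 146 and 238 CPM. B2m ranged over 101, 128 and 185 CPM against 97.3, 143 and 216 CPM. For H2-D1 and B2m 6 of 8 3D6 hearts lay below the control median, and the groups overlapped. The log2 fold change of 3D6 over control was -0.12 ± 0.19 for H2-K1, -0.16 ± 0.14 for H2-D1 and -0.16 ± 0.14 for B2m, with intervals of 2 SE from -0.50 to 0.26, from -0.44 to 0.13 and from -0.45 to 0.13. Without the control antibody heart of mouse 22, the highest for each class I gene, the estimates were 0.02 for H2-K1, -0.04 for H2-D1 and -0.06 for B2m. That heart held 204 CPM of macrophage genes, 20.5 CPM of B cell genes and 7.55 CPM of Ptprc. The control antibody medians were 149, 9.07 and 3.74 CPM. Its mitochondrial share was 25.9%, the lowest of the antibody study, and the part of these in the estimates was not tested. Without the 3D6 heart of mouse 21, H2-K1 stood at -0.22 and B2m at -0.25.

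Tap1 ranged over 6.22, 8.43 and 14.5 CPM in 3D6 hearts and over 6.70, 10.02 and 16.8 CPM in control antibody hearts. Tap2 ranged over 21.9, 25.5 and 27.8 CPM against 16.96, 27.3 and 38.9 CPM, so the 3D6 hearts lay inside the control range. The log2 fold change was -0.24 ± 0.20 for Tap1 (edgeR adjusted p = 0.946) and -0.12 ± 0.13 for Tap2. These became -0.11 and -0.03 without mouse 22, Tap1 was -0.37 without mouse 21, and Tap2 was -0.07 without the control antibody heart of mouse 15 and -0.20 without that of mouse 8.

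H2-Aa ranged over 8.90, 29.5 and 34.7 CPM in 3D6 hearts and over 16.2, 23.4 and 54.7 CPM in control antibody hearts. H2-Ab1 ranged over 9.61, 27.6 and 41.4 CPM against 15.3, 27.5 and 58.1 CPM. H2-Eb1 ranged over 7.35, 28.2 and 31.5 CPM against 13.3, 23.4 and 44.5 CPM. The lowest heart of both groups, mouse 7, was a 3D6 heart and the highest, mouse 22, a control antibody heart. Cd74 ranged over 33.6, 84.8 and 107 CPM against 48.8, 78.0 and 176 CPM, with the same hearts at its ends. The log2 fold change was 0.01 ± 0.26 for H2-Aa, -0.10 ± 0.28 for H2-Ab1, 0.05 ± 0.27 for H2-Eb1 and -0.10 ± 0.24 for Cd74. Without mouse 7 these became 0.03 for H2-Ab1 and 0.02 for Cd74, and without mouse 22 they became 0.12 and 0.14, so the signs of these estimates rest on single hearts. H2-Aa and H2-Eb1 became 0.14 and 0.19 without mouse 7, 0.26 and 0.25 without mouse 22, and -0.07 and -0.03 without the control antibody heart of mouse 11. Over the 16 fits that each left out 1 heart, the sign changed in 10 for H2-Aa and in 4 for H2-Eb1. Scaled to total counts, H2-Aa and H2-Eb1 changed sign to -0.07 and -0.02.

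Ciita showed the largest positive estimate among the 10 members in the antibody study. It ranged over 1.55, 2.03 and 2.85 CPM in 3D6 hearts and over 0.674, 1.53 and 3.42 CPM in control antibody hearts. All 8 of the 3D6 hearts lay above the control median, but the 3D6 range fell inside the control range, and the log2 fold change was 0.31 ± 0.31 (edgeR adjusted p = 0.946). Ciita rested on a mean of 13.2 counts per heart, and the other members on 68.9 or more. An interval of 2 SE around its estimate ran from -0.32 to 0.94. The estimate was 0.55 without mouse 22, and 0.19, 0.19 and 0.20 without the control antibody hearts of mice 11, 15 and 23.

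**Figure D2:**
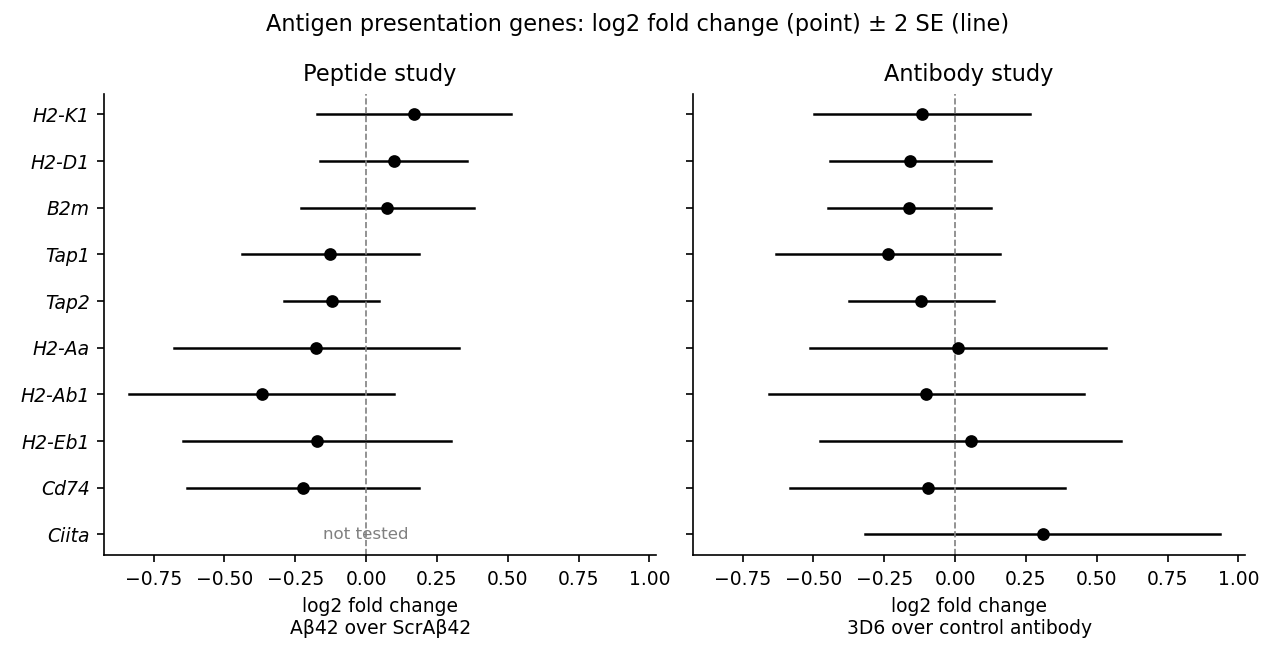
Log2 fold change of each gene for Aβ42 over ScrAβ42 (left) and 3D6 over control antibody (right), with the edgeR estimate as a point and 2 SE on either side as a line. Each line crosses 0, and Ciita was not tested in the peptide study because its mean count was under 10.

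Class I was then set against class II within each heart. The class I score was the mean log2 CPM of H2-K1, H2-D1 and B2m and the class II score that of H2-Aa, H2-Ab1, H2-Eb1 and Cd74, and no test was made on either. Class II minus class I was -2.47 ± 0.58 (SD, n = 7) in Aβ42 hearts and -2.10 ± 0.24 (n = 7) in ScrAβ42 hearts, a difference of -0.36 on the log2 scale. It ranged over -3.22, -2.39 and -1.50 (lowest, median and highest) in Aβ42 hearts and over -2.48, -2.02 and -1.84 in ScrAβ42 hearts. In 6 of 7 Aβ42 hearts the value lay below the ScrAβ42 median, in 3 it lay below the lowest ScrAβ42 heart, and the seventh, Abeta42_3455, was above all ScrAβ42 hearts.

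The Aβ42 hearts Abeta42_3457 and Abeta42_3458 set the lower end, at -3.12 and -3.22. Abeta42_3458 had the highest class I score of the peptide study (7.70) beside a class II score of 4.48, and Abeta42_3457 had the lowest class II score (4.25) beside a class I score of 7.37. The atrial genes summed to 8417 CPM in Abeta42_3457 and 4357 CPM in Abeta42_3458, and their part in these scores was not tested. Without Abeta42_3458 the difference between groups was -0.24, without Abeta42_3457 it was -0.25, and without Abeta42_3455 it was -0.52.

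In the antibody study class II minus class I was -1.87 ± 0.52 (SD, n = 8) in 3D6 hearts and -1.99 ± 0.38 (n = 8) in control antibody hearts, a difference of 0.12. It ranged over -3.00, -1.86 and -1.21 in 3D6 hearts and over -2.76, -1.89 and -1.55 in control antibody hearts, and the groups overlapped. The 3D6 heart of mouse 7 had the lowest class II score of the study, 3.63, beside a class I score of 6.63. Its atrial genes summed to 530 CPM, where 3D6 hearts ranged from 1.05 to 668 CPM and control antibody hearts from 0.821 to 2776 CPM. With the atrial markers as a covariate no member changed sign in the antibody study, where H2-Aa stood at 0.09, H2-Eb1 at 0.11, H2-Ab1 at -0.03 and Cd74 at -0.02. Over these 16 hearts the atrial markers gave rho of -0.71 with class II minus class I and -0.54 with class II. Over the 14 peptide hearts the former was -0.43. The hearts fell into separate clusters of atrial level, and the part of the atrial markers in the scores was not tested. The control antibody heart of mouse 22, whose marker levels are given above, was highest in both scores, at 7.70 and 6.15. The difference between groups was 0.28 without mouse 7, 0.18 without mouse 22, 0.02 without the 3D6 heart of mouse 4 and 0.01 without the control antibody heart of mouse 11. It was 0.07 without the 3D6 heart of mouse 24 and 0.08 without that of mouse 17.

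**Figure D3:**
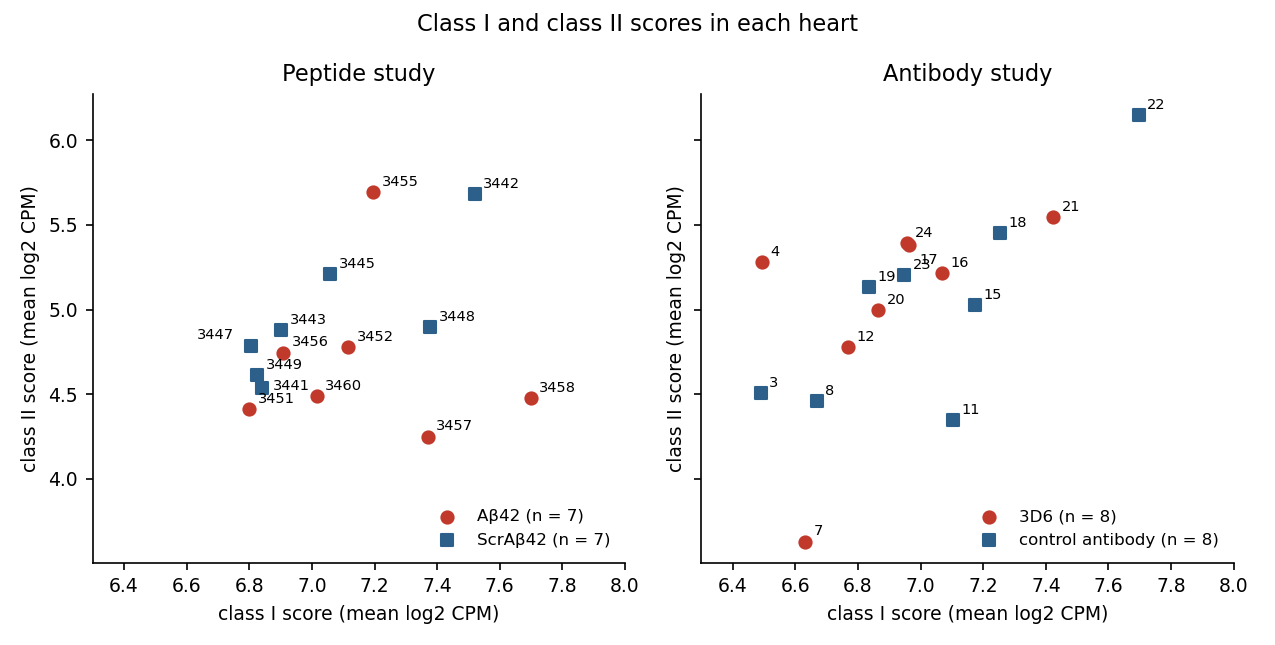
Class I score (horizontal, mean log2 CPM of H2-K1, H2-D1 and B2m) against class II score (vertical, mean log2 CPM of H2-Aa, H2-Ab1, H2-Eb1 and Cd74) in each heart, marked with the number in its label. Hearts Abeta42_3457 and Abeta42_3458 combine a high class I score with a low class II score, and 3D6 mouse 7 has the lowest class II score of the antibody study, 3.63.

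Variation from heart to heart ran in 2 blocks, class I and class II. With group means removed, Pearson's r between H2-K1, H2-D1 and B2m was 0.943 to 0.953 in the peptide study (n = 14) and 0.926 to 0.947 in the antibody study (n = 16), and Spearman's rho was 0.881 to 0.969 and 0.871 to 0.95. Among H2-Aa, H2-Ab1, H2-Eb1 and Cd74, r was 0.875 to 0.949 and 0.962 to 0.981, and rho was 0.67 to 0.903 and 0.941 to 0.965. In a two-sided permutation test with 100000 resamples within groups, all 9 pairs inside the classes had an adjusted p under 0.05 in each study, by r and by rho, over 90 pairs tested in all. The smallest p these resamples can give is 1e-05, and all pairs inside both classes reached it by r in the antibody study. Without the 2 hearts farthest from the median, r inside class II was 0.599 to 0.818 in the peptide study and 0.931 to 0.963 in the antibody study, so the peptide values rest in part on the most extreme hearts. Within single groups, r inside class I was 0.914 or more and r inside class II 0.794 or more in each of the 4 groups. The counts of H2-K1 and H2-D1 can trade reads, but B2m shares no sequence with either, as given at the end.

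Between the classes the relation differed in size by study and group. In the peptide study r between a class I and a class II gene was 0.107 to 0.459 and 0 of 12 pairs had an adjusted p under 0.05. In the antibody study r was 0.548 to 0.759, and 10 of 12 pairs by r and 9 by rho had an adjusted permutation p under 0.05. Without the 2 farthest hearts the antibody values dropped to 0.343 to 0.564. Within groups r was -0.21 to 0.12 in Aβ42 hearts, 0.50 to 0.86 in ScrAβ42 hearts, 0.31 to 0.69 in 3D6 hearts and 0.68 to 0.83 in control antibody hearts. Differences between groups or studies in these values were not tested, and each rests on 7 or 8 hearts.

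Tap1 and Tap2 were also related to class I. In the antibody study r between a transporter and a class I gene was 0.612 to 0.918, with an adjusted permutation p under 0.05 for 5 of 6 pairs by r and by rho, and for Tap1 it reached 0.918 with B2m. In the peptide study it was 0.505 to 0.644, and 1 of 6 pairs by r and 3 by rho had an adjusted p under 0.05. With class II genes r was 0.378 to 0.661 in the antibody study (3 of 8 pairs by r and 2 by rho with an adjusted p under 0.05) and 0.224 to 0.593 in the peptide study (0 of 8). Tap1 and Tap2 themselves gave r of 0.521 and 0.502, with no adjusted p under 0.05. Ciita gave r of 0.434 to 0.481 with the class II genes in the peptide study and 0.457 to 0.56 in the antibody study, again with no adjusted p under 0.05, on few counts.

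**Figure D4:**
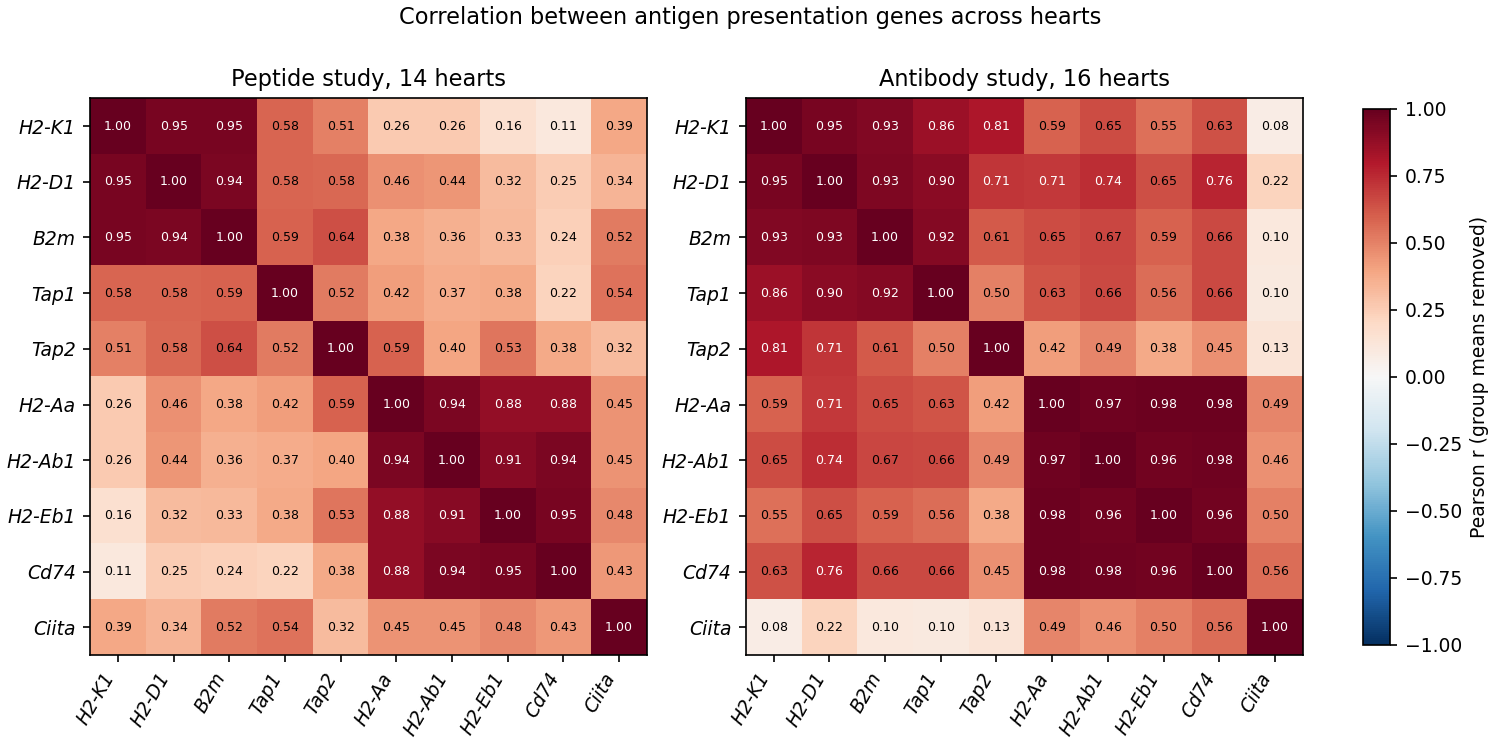
Pearson's r between each pair of genes across hearts with group means removed, for the peptide study (left, n = 14) and the antibody study (right, n = 16). The class I genes form 1 block and the class II genes another in both studies, and r between the blocks is 0.107 to 0.459 in the peptide study and 0.548 to 0.759 in the antibody study.

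Genes outside the list with the most similar pattern were sought over 11361 genes by the lower of their r in the 2 studies. Mpeg1, which encodes the macrophage pore-forming protein perforin-2, came first for all 4 class II genes, with a lower r of 0.797 for H2-Aa, 0.758 for H2-Ab1, 0.796 for H2-Eb1 and 0.802 for Cd74. For H2-Aa the next were Ypel3 (0.71) and Fbxl12 (0.676), for H2-Ab1 Rpl29 (0.738) and Unc13a (0.679), for H2-Eb1 Unc13a (0.66) and Cyth2 (0.62), and for Cd74 Unc13a (0.665) and Rasip1 (0.655). For class I, H2-Q4, which encodes another class I heavy chain, was among the 3 most similar to H2-K1 (0.757) and first for B2m (0.791). Arhgap17 was first for H2-K1 (0.79), followed by Myef2 (0.763), and Slfn2 was first for H2-D1 (0.799), followed by Nrros (0.791) and the complement gene C1qa (0.762). Slfn2 (0.757) and Arhgap17 (0.751) also followed for B2m. Cxcl16, Trim30d and Arhgap45 were most similar to Tap1 (0.723, 0.71 and 0.707), and Faap20, 1300002E11Rik and Espn to Tap2 (0.796, 0.768 and 0.761). These are descriptions over 14 and 16 hearts.

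Some properties of the libraries moved with some of these genes. The 10 members were set against 4 measures in both studies (the mitochondrial share of counts, Ptprc, the macrophage markers and the atrial markers), 80 relations in all. By r the strongest was with the mitochondrial share in the antibody study, and by rho that of B2m with the macrophage markers in the peptide study. For the mitochondrial share r was -0.83 for H2-K1 (rho = -0.78, permutation adjusted p = 0.0208 for r and 0.029 for rho), -0.81 for H2-D1 (rho = -0.83, adjusted p = 0.0208 and 0.0256) and -0.81 for Tap2 (rho = -0.57, adjusted p = 0.0302 and 0.101). Tap1 passed by rho alone, with r of -0.68 (rho = -0.71, permutation adjusted p = 0.0566 and 0.044). In that study r was negative for all 10 members, from -0.83 to -0.28. B2m fell just short, with r of -0.71 (rho = -0.67, permutation adjusted p = 0.0528 and 0.0515). The class II genes gave r of -0.63 to -0.52, with no adjusted p under 0.05. Within groups their r was -0.92 to -0.85 in control antibody hearts and -0.20 to -0.06 in 3D6 hearts. Without the 2 hearts farthest from the median mitochondrial share, r was -0.74 for H2-K1, -0.71 for H2-D1, -0.52 for Tap2 and -0.64 for Tap1. Within groups r for H2-K1 was -0.65 in 3D6 hearts and -0.91 in control antibody hearts, for H2-D1 -0.68 and -0.88, for Tap2 -0.35 and -0.92, and for Tap1 -0.60 and -0.75. In the peptide study r with H2-K1 was -0.54 (rho = -0.42, adjusted p = 0.125 for r and 0.24 for rho). The 3D6 libraries had mitochondrial shares of 30.6% to 37.8% and the control antibody libraries 25.9% to 37.7%. With this share as a covariate, the 3D6 estimates changed sign to 0.15 for H2-K1, 0.01 for H2-D1, 0.05 for Tap2, 0.27 for H2-Ab1 and 0.20 for Cd74, while B2m stood at -0.01, Tap1 at -0.02, H2-Aa at 0.33, H2-Eb1 at 0.35 and Ciita at 0.48. What the mitochondrial share contributed to the levels of these genes was not tested further.

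**Figure D5:**
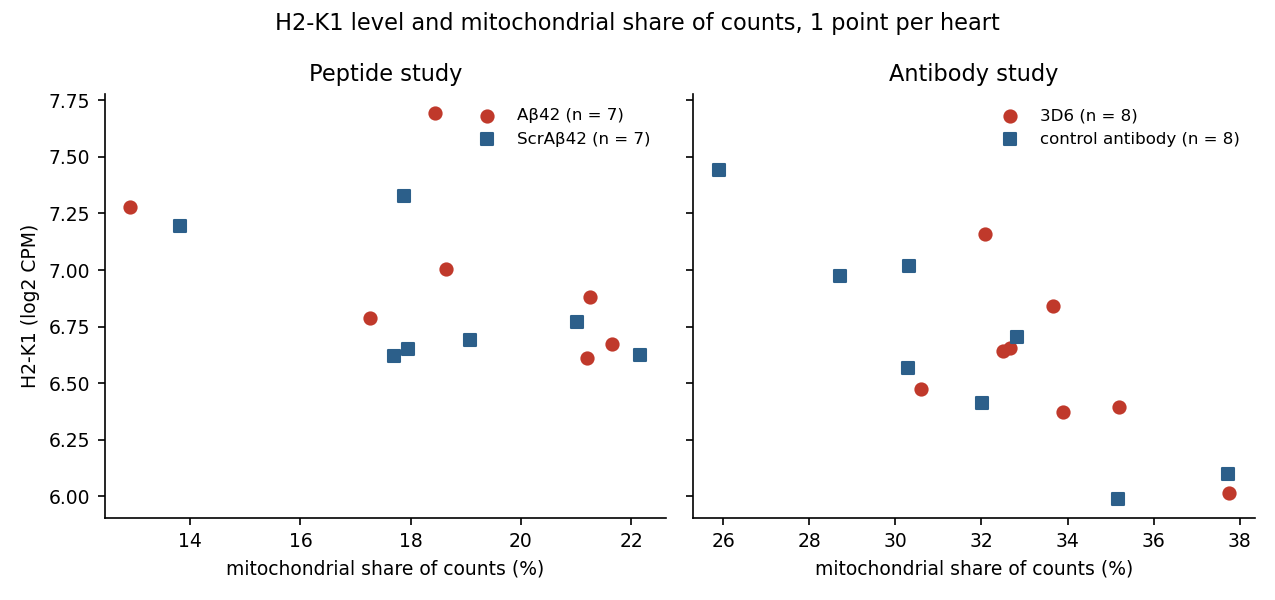
H2-K1 level (log2 CPM) against the share of counts on the mitochondrial genome (%) in each heart of the peptide study (left) and the antibody study (right). In the antibody study H2-K1 is lower in hearts with a larger share, with r of -0.65 in 3D6 hearts and -0.91 in control antibody hearts.

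Leukocyte markers also moved with some of the members. With Ptprc, 2 of 10 members by r and 1 by rho had a permutation adjusted p under 0.05 in the peptide study. In the antibody study 0 did. With the macrophage markers, 0 by r and 4 by rho passed in the peptide study, and 2 by each in the antibody study. Ptprc, which encodes the pan-leukocyte protein CD45, gave r of 0.75 with H2-Aa (rho = 0.73, permutation adjusted p = 0.0312 and 0.0515) and 0.71 with H2-Ab1 (rho = 0.72, adjusted p = 0.0216 and 0.0398) in the peptide study, and 0.62 for both in the antibody study (adjusted p = 0.0566 and 0.0576 for r). The macrophage markers gave r of 0.72 with H2-K1 (rho = 0.72, adjusted p = 0.0312 and 0.0347) and 0.72 with H2-D1 (rho = 0.74, adjusted p = 0.0312 and 0.0322) in the antibody study. In the peptide study their rho with H2-K1, H2-D1, B2m and Tap2 was 0.81, 0.78, 0.83 and 0.74, each with an adjusted p under 0.05, while the adjusted p of r was not under 0.05 for any member. The 11 macrophage markers summed to 252 to 415 CPM in Aβ42 hearts and 215 to 559 CPM in ScrAβ42 hearts, and to 100.3 to 169 CPM in 3D6 hearts and 115 to 204 CPM in control antibody hearts. Fcgr1 alone of them was under the minimum count, and 4 of 10 tested were higher with Aβ42 and 2 of 10 with 3D6, against 50.5% and 47.4% of all tested genes. An unadjusted p under 0.05 was reached by 0 of them, against 6.51% and 3.64% of all tested genes. For the atrial markers 0 relations had an adjusted p under 0.05 by r or rho, and no r is given because the hearts fell into separate clusters of atrial level.

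Markers of other leukocytes were sparse. The 7 T cell markers summed to 0.988 to 4.20 CPM in Aβ42 hearts and 1.26 to 4.42 CPM in ScrAβ42 hearts, and none of them reached the minimum count in either study. Of the 7 dendritic cell markers, Flt3, Xcr1, Cd209a, Itgax and Ccr7 were under the minimum count in both studies. Of the B cell markers, Ighm alone reached the minimum count. Ighm, the constant region of IgM, was 14.9 ± 16.95 CPM (SD, n = 7) in Aβ42 and 4.43 ± 1.28 CPM in ScrAβ42 hearts, a log2 fold change of 1.74 ± 0.60 (edgeR adjusted p = 0.689, unadjusted p under 0.05). It was 5.63 ± 1.68 CPM with 3D6 and 7.65 ± 2.48 CPM with control antibody, -0.45 ± 0.20 (edgeR adjusted p = 0.946, unadjusted p under 0.05). In these directions 3.59% and 2.32% of all tested genes had an unadjusted p under 0.05. The hearts Abeta42_3451 and Abeta42_3455 held 43.5 and 43.4 CPM of summed B cell markers, and the other 5 Aβ42 hearts 2.78 to 10.2 CPM.

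Endothelial markers are listed because endothelium also carries class I. Emcn, a sialomucin of capillaries, had an unadjusted p under 0.05 in both studies, with a log2 fold change of 0.34 ± 0.14 with Aβ42 (edgeR adjusted p = 0.708) and -0.25 ± 0.10 with 3D6 (edgeR adjusted p = 0.946). Pecam1, the adhesion molecule CD31, had 0.22 ± 0.12 (edgeR adjusted p = 0.795) and -0.23 ± 0.08 (edgeR adjusted p = 0.946), with an unadjusted p under 0.05 for 3D6 only. Over the 8 endothelial markers, 3 were higher by sign with Aβ42 and 0 with 3D6, against 50.5% and 47.4% of all tested genes. At an unadjusted p under 0.05, 1 was higher with Aβ42 and 2 were lower with 3D6, against 3.59% and 2.32% of all tested genes. By sign 4 of 4 tested fat markers and 5 of 5 atrial markers were higher with Aβ42. Of these Plin1 (2.66 ± 1.24, edgeR adjusted p = 0.762) and Bmp10 (6.81 ± 1.89, edgeR adjusted p = 0.639) had an unadjusted p under 0.05 with Aβ42. In that direction 3.59% of all tested genes did. The Plin1 and Bmp10 estimates rest on few hearts. In Aβ42 hearts Plin1 had a median of 0.773 and a maximum of 84.8 CPM. Bmp10 had a median of 0.580 and a maximum of 1209 CPM there, beside a ScrAβ42 median of 0.387 CPM. The red cell genes were lower with Aβ42 for 5 of 5 and the ventricular cardiomyocyte genes for 5 of 7, where 5934 of 11985 tested genes were lower. An unadjusted p under 0.05 was reached by 0 of these genes, against 2.92% of all tested genes in that direction. In the antibody study ventricular cardiomyocyte genes gave r of 0.67 (rho = 0.74) with the class II score and 0.61 with class I. In the peptide study these were -0.10 and -0.49. Red cell genes gave 0.60 with class I in the antibody study and -0.11 in the peptide study. With class II, B cell markers gave 0.64 and 0.28, and dendritic cell markers 0.62 and -0.10, respectively. These score correlations carry no test. Whether any of these cell markers bears on the level of the antigen presentation genes was not tested beyond the correlations and covariate fits given.

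The wider class I pathway was described in the same way. Of 24 listed genes, which included other heavy chains, chaperones, immunoproteasome subunits and interferon regulators, 22 were tested in each study. With Aβ42, 10 were higher and 12 lower by sign, with a median log2 fold change of -0.02 against 0.00 over all tested genes, and 1 had an unadjusted p under 0.05 in the lower direction, which 2.92% of all tested genes had. That gene was Irf2, an interferon regulatory factor, at 20.0 ± 1.495 CPM with Aβ42 and 23.9 ± 2.75 CPM with ScrAβ42 (log2 fold change -0.26 ± 0.08, edgeR adjusted p = 0.656). With 3D6, 4 were higher and 18 lower, with a median of -0.10 against -0.01 over all tested genes, of which 47.4% were higher. Of the 22, 0 had an unadjusted p under 0.05, against 3.64% of all tested genes. Nlrc5, the coactivator of class I genes, had a log2 fold change of -0.15 ± 0.27 with Aβ42 and -0.20 ± 0.26 with 3D6. Psmb8, an immunoproteasome subunit, had -0.09 ± 0.19 and -0.22 ± 0.22.

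Of 23 class II pathway genes, 15 were tested for Aβ42 and 16 for 3D6. With Aβ42, 8 were higher and 7 lower by sign with a median of 0.04, against 50.5% of all tested genes higher, and 2 had an unadjusted p under 0.05, both lower, as 2.92% of all tested genes did. H2-DMa, a chain of the H2-DM molecule that loads peptide onto class II, was 1.86 ± 0.43 CPM with Aβ42 and 2.67 ± 0.83 CPM with ScrAβ42 (-0.53 ± 0.22, edgeR adjusted p = 0.725). Nfya, a subunit of the NF-Y factor that binds the Y box, was 24.003 ± 2.51 CPM and 27.6 ± 1.92 CPM (-0.20 ± 0.08, edgeR adjusted p = 0.702). With 3D6, 7 were higher and 9 lower with a median of -0.02, and 1 in each direction had an unadjusted p under 0.05, against 1.32% of all tested genes higher and 2.32% lower. Rfx5 and Rfxap, subunits of the RFX factor that binds the X box, had opposite signs, Rfx5 at 0.35 ± 0.14 (edgeR adjusted p = 0.946) and Rfxap at -0.23 ± 0.11 (edgeR adjusted p = 0.946). The pseudogene H2-Ea-ps, which stands in C57BL6J mice where other strains have the α chain of I-E, had 0 counts in all 30 hearts. A floor of 3 counts corresponds to 0.412 to 0.717 CPM in the peptide libraries and 0.366 to 0.479 CPM in the antibody libraries, and covers counting error only.

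The antibody table also resolved transcripts. It held 62 transcripts of the members, of which 22 passed the minimum mean of 10 counts, and 0 of these had an unadjusted edgeR p under 0.05, against 2.4% of the 20857 transcripts tested (0.959% higher and 1.44% lower, with 49% above 0 by sign). Cd74 spans chr18:60803848-60812652 on the plus strand. Of its counts, 67.7% ± 2.93 (SD, n = 16) were assigned to Cd74-201, which encodes 215 residues, and 31.5% ± 2.99 to Cd74-202, which encodes 279 residues and holds the thyroglobulin-like domain. The share of Cd74-202 was 31.8% ± 3.64 in 3D6 hearts and 31.3% ± 2.39 in control antibody hearts, a difference smaller than the spread between hearts. Of Tap2 counts, 67.9% ± 10.1 were assigned to Tap2-202, a retained-intron transcript, and 32.1% ± 10.1 to the coding Tap2-201. H2-Eb1 counts were divided over the coding H2-Eb1-203 (30.99% ± 8.22), H2-Eb1-205 (37.8% ± 10.4), annotated for nonsense-mediated decay, and the retained-intron H2-Eb1-204 (25.2% ± 5.46). Library preparation from total RNA, as used here, keeps unspliced RNA, and these shares are estimates by the authors' counting tool.

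The coding Tap1-206 took 62.9% ± 10.2 of Tap1 counts with 3D6 and 75.8% ± 11.1 with control antibody. This share ran from 51.6% to 80.3% and from 63.4% to 97.6%, and it was not tested. The level of the transcript itself had a log2 fold change of -0.46 ± 0.24 (edgeR adjusted p = 0.9998). H2-K1-201 took 63.0% ± 6.81 of H2-K1 counts and H2-D1-202 took 73.8% ± 5.09 of H2-D1 counts. H2-Aa-201 took 96.6% ± 6.37 of H2-Aa counts, the exception being the control antibody heart of mouse 22, where H2-Aa-204 received 93 counts (24.2%) and had 0 in each of the other 15 hearts.

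Sequence shared between transcripts limits some of these counts. Of the 31-base words in the longest protein-coding transcript of H2-K1, 23.3% occurred in transcripts of other genes, 16.9% in H2-D1, and of those of H2-D1, 27.5% occurred elsewhere, 12.9% in H2-K1. Reads from such words can be divided between copies by the counting tool, so levels of H2-K1 and H2-D1 are uncertain against each other and against other heavy chain genes. For Tap1, Tap2, H2-Ab1, H2-Eb1, Cd74 and Ciita the shared part was 1.74% or less, and for B2m and H2-Aa it was 0%.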

How the data were processed

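Left ventricles of 30 mice were profiled from total RNA with stranded libraries. For the peptide study the authors deposited gene counts, and for the antibody study estimated counts per transcript. Per the labels the submitters' processing notes name Salmon with GRCm38, the study's methods name GENCODE vM24 transcripts, and the Salmon version is not given in the sources used here. Estimated counts were summed to genes with GENCODE vM21 (99.2% of transcripts were listed, and unlisted ones held 0.381% of counts) and rounded. A single column (1) of per-sample values in the peptide table matched no sample and was not used.

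Each study was fitted separately, over genes averaging 10 counts or more per heart, with edgeR 4.0.16 (quasi-likelihood, TMM scaling, Benjamini-Hochberg adjustment) in R 4.3.3, with DESeq2 1.42.0 and limma-voom (limma 3.58.1) as alternatives. CPM are counts scaled to the TMM-adjusted library size, and log2 CPM used a prior count of 2. Ciita in the peptide study was compared by a two-sided exact permutation test. Correlations used 100000 resamples within groups. The interval given is 2 SE on either side of an estimate. Python 3.11.15, numpy 2.4.6, pandas 2.3.3 and scipy 1.17.1 were used.

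The named genes were all 10 members, the 3 most similar genes for each tested member, and list genes with an unadjusted p under 0.05 (at most 5 a list); Nlrc5 and Psmb8 were named in addition, after their values were seen. Members and lists were chosen with earlier results of these data known. Tested on simulated data with 200 genes changed by a log2 fold of 1, the edgeR fit recovered 81% in the peptide comparison (11886 genes, 10 false calls) and 87% in the antibody comparison (12180 genes, 7 false calls). No pair of hearts within a group matched to counting noise (the smallest chi-square over its degrees of freedom was 3.57), and every heart was 1 replicate.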

Additional observations from a re-analysis of the deposited data

Results flagged for a closer look

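Within each group of hearts, the highest and lowest values of each gene and class score were set against the others with Dixon's criterion, which flags about 1 in 20 groups by chance. Of 52 groups looked at, 9 were flagged, and since the class II genes vary together these are not 9 separate events. In the 3D6 group the heart of mouse 7 stood apart at the low end, with log2 CPM of 5.08 for Cd74, 3.20 for H2-Aa and 2.93 for H2-Eb1, a class II score of 3.63 and a class II minus class I value of -3.00. That heart also had 116 CPM of macrophage genes, 2.40 CPM of Ptprc and 530 CPM of atrial genes (3D6 median 98.5 CPM). In the Aβ42 group the heart Abeta42_3455 stood apart at the high end, with log2 CPM of 6.77 for Cd74, 5.52 for H2-Aa and 5.39 for H2-Eb1 and a class II score of 5.69. It had 415 CPM of macrophage genes, 43.4 CPM of B cell genes and 9.17 CPM of Ptprc, and the part of these cells in the class II levels was not tested.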

How the results depend on the processing

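No member had an unadjusted p under 0.05 in either study under any of 8 alternative tools, scalings, filters and covariates. Leaving out 1 heart gave 0 to 3 such members in the peptide study. The 3 came without Abeta42_3455, where 349 genes higher and 319 lower, of 11970 tested, had an unadjusted p under 0.05. The count of peptide genes with an adjusted p under 0.05 was 12 with DESeq2 and 0 to 3 when 1 heart was left out. The count with an unadjusted p under 0.05 was 1252 with the mitochondrial share as covariate, 1475 with no filter and 609 to 1266 without 1 heart in the peptide study (1266 without the heart ScrAbeta42_3448), and 1213 with no filter and 256 to 772 without 1 heart in the antibody study. With the atrial score as covariate, peptide estimates changed sign for H2-K1 (-0.060), H2-D1 (-0.060) and B2m (-0.075), and the split of genes with an unadjusted p under 0.05 went from 430 higher and 350 lower to 309 and 588. With the mitochondrial share as covariate, antibody estimates changed sign for H2-K1 (0.15), H2-D1 (0.013), Tap2 (0.048), H2-Ab1 (0.27) and Cd74 (0.20), and the split went from 162 higher and 285 lower to 284 and 262. Scaling to total counts changed the sign for H2-Aa (-0.066) and H2-Eb1 (-0.020), with a split of 91 and 438 and a median over all genes of -0.06. The antibody estimate of Ciita was 0.53 with limma-voom. The cause was not tested for any of these. Leaving out 1 heart, peptide estimates ran from -0.024 to 0.17 for B2m, from -0.42 to 0.0019 for H2-Eb1 and from -0.086 to 0.31 for Ciita. Antibody estimates ran from -0.22 to 0.023 for H2-K1, from -0.066 to 0.26 for H2-Aa, from -0.21 to 0.12 for H2-Ab1, from -0.033 to 0.25 for H2-Eb1 and from -0.18 to 0.14 for Cd74. No paired analysis was possible because the groups share no replicate numbers in the peptide study. In the antibody study the labels name no pairs either, but each of 8 pairs of consecutive mouse numbers held 1 heart of each group. Deviations from the group means correlated over 0.1 in 6 of these pairs, from -0.21 for mice 15 and 16 to 0.41 for mice 3 and 4. Among the controls, 2 of the 3D6 hearts correlated best with their own neighbour, and for mice 4, 12 and 21 the neighbour ranked 2. These values do not settle whether consecutive numbers pair the hearts, and the main fit has no block. With a replicate block of consecutive numbers, chosen after seeing the data, 945 genes had an unadjusted p under 0.05, against 447 without it. In the blocked fit 0 genes had an adjusted p under 0.05. The 945 included 2 members, B2m (-0.15 ± 0.069, edgeR adjusted p = 0.647) and Tap1 (-0.23 ± 0.10, edgeR adjusted p = 0.647). Without the block their SE was 0.14 and 0.20. Depth limits Ciita most, and p-values measure only the spread between these hearts.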
